A study of Rattus norvegicus with 6 samples.

Results

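Cytidine deaminase and 8 further genes of pyrimidine metabolism were followed in rat liver after dosing with pregnenolone-16α-carbonitrile (PCN), a steroid drug and standard agonist of the pregnane X receptor (PXR) in rodents. The 9 genes were Cda, Dctd, Cad, Uck1, Upp1, Upp2, Dpyd, Dpys and Upb1, found through the transcript accession of every non-control probe, and they were represented by 11 of the 30367 probes on the array. They were selected on the measured signal of Cda, which was detected with PCN and undetected in controls, so the change of Cda is given as a description, without a test. The PCN group was 3 male Wistar Hannover rats given 100 mg/kg of PCN per day by gavage, and the control group was 3 male rats of that strain given the corn oil vehicle, both for 7 days. All were bought at 4 weeks of age and quarantined for 1 week. Total RNA of each rat's liver, which mixes hepatocytes with all other liver cells, was labelled with Cy3 and hybridised to a 1-colour Agilent array. A level below is the log2 of a probe's background-subtracted (processed) signal over the 75th percentile of its array, so levels compare arrays for the same probe and not different probes.

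Pyrimidine nucleotides are built from small precursors, recovered from nucleosides by kinases, or broken down to β-amino acids. Cytidine deaminase turns cytidine and deoxycytidine into uridine and deoxyuridine, which feeds the cytosine compounds into the uracil pool, and it inactivates cytidine analogue drugs. The liver is a main site of uridine and uracil breakdown, where uridine phosphorylase releases uracil and the enzymes encoded by Dpyd, Dpys and Upb1 degrade it in sequence.

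The 75th percentile of the processed signal lay between 487.7 and 627.3 on the PCN arrays and between 633.5 and 758 on the control arrays, and 0 spots were saturated. All 3 PCN arrays lay on 1 slide and all 3 control arrays on another, and an effect of the slide cannot be told apart from that of PCN. As a check that PCN had acted, Cyp3a23-3a1, the inducible P450 of the 3A subfamily, rose by 4.31 ± 0.19 on the log2 scale and the uptake transporter Slco1a4 by 3.41 ± 0.22 (SE, n = 3 per group, adjusted p = 1.69e-04 and 3.56e-04). All 10 hepatocyte markers examined, among them Alb and Apoa1, were well above background on all 6 arrays, and 0 of them passed the test. Of 16389 tested genes 3263 passed (19.9%), 716 higher (4.37%) and 2547 lower (15.5%) with PCN. The share of lower calls was 78.1%, and 96.9% with scaling to the E1A spike-in controls, 41% with median scaling, 66% with quantile normalization and 64.4% with normexp background correction. Median and spike-in scaling moved the all-gene median log2 fold change to 0.14 and −0.34, against −0.06 in the main setting. Fewer cells of a type and less RNA per cell cannot be told apart in whole liver.

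The promoters of Cda, whose change led to this set of genes, of Upp2, which had the largest measured change among the other members, and of Cyp3a23-3a1, shown as a known PXR target for comparison, are printed from RefSeq (build GRCr8, 250 bases before to 50 after the gene start, 5′ to 3′ along the gene). Their places are chr5:155866492-155866791 (minus strand) for Cda, chr3:63681576-63681875 (plus strand) for Upp2 and chr12:14398754-14399053 (minus strand) for Cyp3a23-3a1. Capitals mark the hexamers AGTTCA and AGGTCA, the elements whose pairs PXR binds, on either strand, where the opposite strand reads TGAACT or TGACCT.
Cda: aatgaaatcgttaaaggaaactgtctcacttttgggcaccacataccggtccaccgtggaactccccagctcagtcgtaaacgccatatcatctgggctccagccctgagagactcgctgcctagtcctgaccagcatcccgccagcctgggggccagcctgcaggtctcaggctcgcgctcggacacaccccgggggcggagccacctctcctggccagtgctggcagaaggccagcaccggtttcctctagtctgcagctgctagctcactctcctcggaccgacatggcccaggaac
Upp2: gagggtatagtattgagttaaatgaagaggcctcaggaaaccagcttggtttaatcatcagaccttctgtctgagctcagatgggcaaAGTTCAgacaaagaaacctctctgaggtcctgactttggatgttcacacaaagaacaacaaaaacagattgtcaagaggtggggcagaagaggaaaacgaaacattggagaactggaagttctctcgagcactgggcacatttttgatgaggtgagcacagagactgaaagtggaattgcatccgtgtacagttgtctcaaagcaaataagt
Cyp3a23-3a1: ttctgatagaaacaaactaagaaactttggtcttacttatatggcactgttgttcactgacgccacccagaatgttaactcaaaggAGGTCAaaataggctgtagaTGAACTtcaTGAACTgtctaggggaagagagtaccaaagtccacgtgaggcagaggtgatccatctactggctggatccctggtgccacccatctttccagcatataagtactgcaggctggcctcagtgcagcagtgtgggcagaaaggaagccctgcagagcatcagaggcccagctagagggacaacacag

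Both strands of the 300-base windows were searched for either hexamer and for pairs of them. The pairs were direct repeats 3 or 4 bases apart and everted repeats 6 or 8 bases apart, and neighbouring pairs could share a hexamer. The Cyp3a23-3a1 window held 3 hexamers, of which 2 form a direct repeat 3 bases apart, the only pair of these 3 windows. The Upp2 window held 1 AGTTCA, which begins 162 bases before the gene start, and the Cda window held 0. The window of Slco1a4, the other gene that served as a check of PCN, also held 0 hexamers and no pair. Among the 33469 rat promoters searched, 27.9% hold either hexamer, 14.5% hold AGTTCA, 0.0418% hold a direct repeat 3 bases apart and 0.0807% hold any of the pairs. Over the 8 members with a sequence there, the hexamers were found in Upp2 alone and no pair was found. The TATA box letters TATAAA, held by 14.2% of the promoters, occurred in Upp1 alone, and the GC content was 61.7% for Cda, 43.7% for Upp2 and 49.0% for Cyp3a23-3a1. A match or its absence describes these letters in these windows.

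Cda was undetected in control livers and detected in every PCN liver. Its level was −2.22, −3.38 and −2.45 on PCN arrays 1 to 3 and −8.00, −7.01 and −7.70 on control arrays 1 to 3. PCN array 2 was the lowest of its group and control array 2 the highest of its group, and the groups lay far apart. The means were −2.68 ± 0.61 with PCN and −7.57 ± 0.51 in controls (SD, n = 3 each), a log2 fold change of 4.89 ± 0.36 (SE) or 29.6-fold as measured. None of the control arrays had the probe well above background, so a smaller fold of 17.4, called the bound, is also given. It sets the PCN mean against a floor on each control array. The floor is the higher of the probe's own level and the lowest level of any probe well above background there. That floor is not a detection limit, since Dctd at −5.95 on control array 3 lay above it and was not well above background. The true change can thus be smaller than the bound, which holds for this scaling only.

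The array carries the Cda probe at 10 spots, which shows how repeatable the reading was. The 10 spots gave processed signals of 120.2 to 133.6 on PCN array 1, 45.09 to 68.76 on PCN array 2 and 83.96 to 95.78 on PCN array 3, against 2.186 to 4.342, 3.047 to 10.95 and 2.590 to 4.741 on control arrays 1 to 3. All 10 spots were well above background on each PCN array, and 0 of 10 on each control array. The SD of the log2 spot signals was 0.05, 0.18 and 0.07 on PCN arrays 1 to 3, against 0.61 among the PCN livers. It was 0.28, 0.73 and 0.26 on control arrays 1 to 3, against 0.51 among the control livers. On the control arrays 8, 2 and 9 of the 10 spots had a processed signal no larger than the scanner's own error estimate, a stand-in for a signal that could not be told from background. Before background subtraction the median spot signal was 169.5, 97.5 and 138.2 on the PCN arrays over a local background of 30, 29 and 26. It was 41, 52 and 38 on the control arrays over a local background of 37, 40.5 and 39.5. In the authors' deposited values, which are rounded to 2 decimals, the median of the Cda spots was 0.215, 0.1 and 0.185 on the PCN arrays and 0, 0.01 and 0 on the control arrays.

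**Figure D1:**
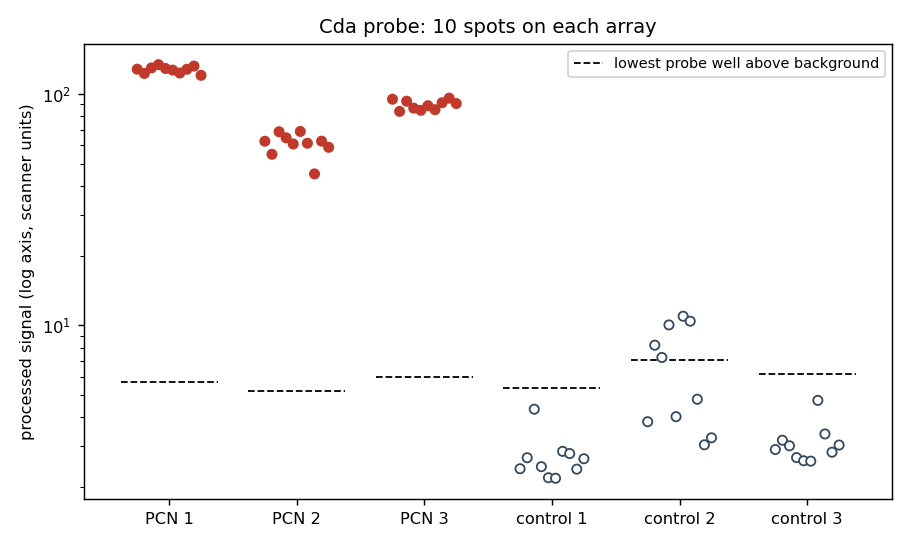
Processed signal (scanner units, log axis) of the 10 Cda spots on each array, PCN arrays left and control arrays right, filled where a spot was well above background and open where it was not, with the dimmest well-detected probe of each array as a dashed line. All PCN spots lie at 45.09 or higher and all control spots at 10.95 or lower, 5 of those on control array 2 above its dashed line.

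The size of the Cda change depends on how low signals are treated (background correction, added constants and rounding), and its direction does not. It was 1.50 on the log2 scale with normexp background correction, which adds 50 to every signal, and 3.66 with the authors' deposited values plus 0.01, against 4.89 in the main setting. Leaving out 1 array at a time gave 4.66 to 5.23. Only 11 of 16389 tested genes (0.0671%) were well above background on all 3 PCN arrays and on no control array, 6 of them with a gene symbol that is not a placeholder. Among the others were the drug conjugate exporter Abcc3, the neuropeptide precursor Pnoc, the aldehyde oxidase Aox4 and the transcription factor Bhlhe22. Their measured log2 fold changes were 2.58, 1.60, 1.14 and 0.57, and the bounds of Abcc3 and Pnoc were 5.40-fold and 2.18-fold. Cda, which was selected on this same signal, had the largest measured rise among these 6 in the main setting, so its rank is a description only. Its bound of 17.4-fold is below the 19.8-fold rise of Cyp3a23-3a1, and with normexp and with the deposited values its log2 fold change was below that of Cyp3a23-3a1 (4.30 and 4.31).

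The genes whose 6 levels followed those of Cda most closely were Azgp1, Mri1, Slx9 and the uptake transporters Slco1a5 and Slco1a6, with Pearson r of 0.998, 0.997, 0.995, 0.995 and 0.995 over 6 arrays. Their log2 fold changes were 0.46, 0.47, 0.48, 1.77 and 2.85, all smaller than that of Cda. Each r mostly reflects the gap between the groups, and it is given as a description.

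In humans cytidine deaminase is abundant in neutrophils as well as in liver, so markers of white cells were read beside Cda. Of 11 neutrophil markers with a probe, 4 were well above background on all 6 arrays, and the granule proteases Elane and Prtn3 and the receptors Csf3r and Cxcr2, with Ltf and Mmp8, were well above background on none. Their summed level on the linear scale, as a multiple of the 75th percentile, was 0.816 to 1.33 with PCN and 1.02 to 1.86 in controls. Of the 4 that were tested 0 were higher and 1, the ficolin Fcnb, was lower with PCN (−0.66 ± 0.18, adjusted p = 0.0433). That is 25% called, against 19.9% of all tested genes. The neutrophil calcium-binding protein gene S100a8 was at −3.22, −1.97 and −2.56 on the PCN arrays and −2.77, −1.24 and −2.16 on the control arrays, so the groups overlapped. Of 14 Kupffer cell and monocyte markers 13 were well above background on all 6 arrays, with summed levels of 65.2 to 85.3 with PCN and 79.7 to 89.7 in controls. Of the 13 tested 1 was higher, the endotoxin co-receptor Cd14 (1.31 ± 0.15, adjusted p = 2.72e-03), and 0 were lower. The share called was 7.69%. The other 12 did not pass, all with values below 0, and the median of the list was −0.37. T cell markers summed to 0.436 to 0.554 with PCN and 0.62 to 0.773 in controls. For B cell markers the sums were 0.82 to 0.974 and 1.05 to 1.42. Of 5 tested T cell markers 0 were higher and 2, Cd3d and Lck, were lower (40% called), and 0 of 3 tested B cell markers passed. None of these sums was higher in all PCN livers than in all control livers. Those of T and B cell markers were lower in all PCN livers than in all control livers. Whether white cells bear on the change of Cda was not tested.

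None of the other 7 members tested passed the test in the main setting (limma, 0 of 7), where 19.9% of all tested genes passed. With an unadjusted p under 0.05 the count was also 0 of 7, against 5653 of all 16389 tested genes. The median log2 fold change of the 7 was −0.05, against −0.06 for all tested genes. In 0 of these 7 were the arrays of the groups apart at the probe that stands for the gene, against 41.4% of all tested genes. These 7 were listed for their place in the pathway, with results of these data known.

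**Figure D2:**
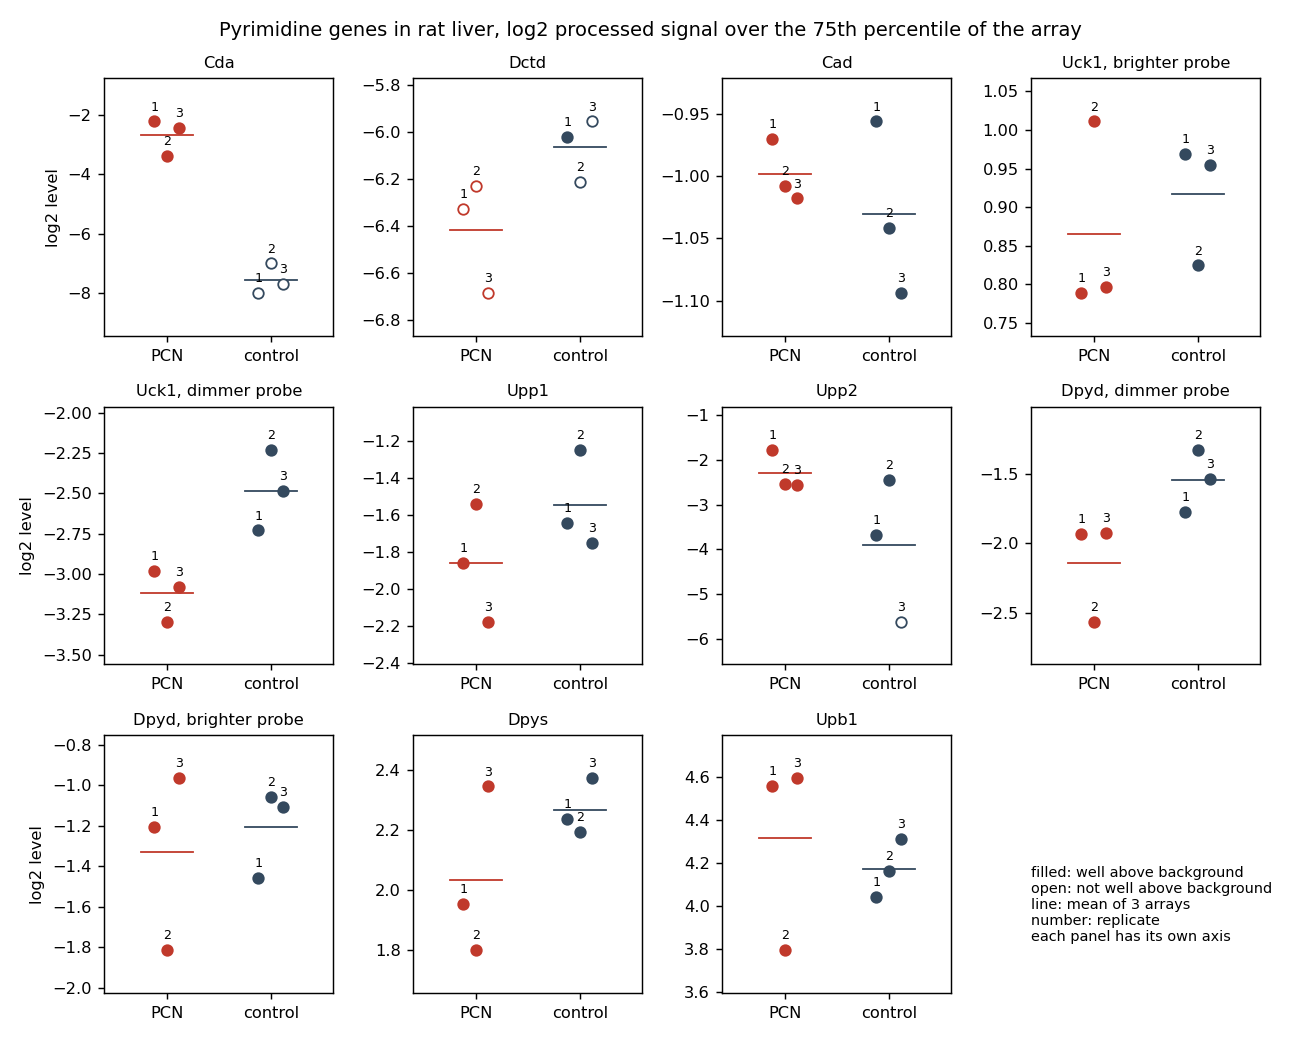
Log2 level of each of the 11 probes of the 9 genes by array, PCN left and control right, with the replicate number above each point, the group mean as a line and open points where the probe was not well above background. The groups lie far apart for Cda, overlap for the brightest probe of each other tested gene, and do not overlap for Dctd, which was below the filter, or for the dimmer probes of Uck1 and Dpyd.

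Dctd, the deaminase that acts on deoxycytidine monophosphate and so works beside Cda one phosphate up, was close to the detection limit in both groups and was not tested. Its level was −6.33, −6.23 and −6.69 on PCN arrays 1 to 3 and −6.02, −6.21 and −5.95 on control arrays 1 to 3. All PCN arrays lay below all control arrays by a narrow margin, and the means were −6.42 ± 0.24 with PCN and −6.06 ± 0.13 in controls (SD, n = 3 each). None of its kept spots was well above background on a PCN array, where 10, 8 and 10 of 10 spots were kept, against 5, 2 and 2 of 10 on control arrays 1 to 3. The measured difference of −0.35 became 0.16 with normexp, so no direction is given. Of the other deaminases on the list, Adat2, Adat3, Apobec1, Apobec2 and Cdadc1, 0 of 5 tested passed, with a median of −0.25. Among all tested genes 19.9% passed. The lowest p belonged to Adat3, a subunit of the adenosine deaminase of tRNA, at −0.30 ± 0.10 (adjusted p = 0.0780), and it passed with spike-in scaling (adjusted p = 0.0153).

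Cad, which encodes the 3-activity enzyme that starts pyrimidine synthesis, was the steadiest member. Its level was −0.97, −1.01 and −1.02 on PCN arrays 1 to 3 and −0.96, −1.04 and −1.09 on control arrays 1 to 3. The groups overlapped, and the log2 fold change was 0.03 ± 0.09 with a 95% interval of −0.19 to 0.25 (adjusted p = 0.844).

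Over the synthesis list, 1 of 11 tested genes rose and 0 fell, with a median of 0.04. The share called was 9.09%, against 19.9% of all tested genes. The gene that rose was Dhodh, the mitochondrial enzyme that makes orotate, with levels of 0.29, 0.27 and 0.23 on the PCN arrays and −0.02, −0.13 and −0.06 on the control arrays. The groups were apart, but the change was small (0.33 ± 0.09, adjusted p = 0.0461). Each of the 6 fits that left out 1 array lost the call, with adjusted p between 0.0805 and 0.137, as did cyclic loess (adjusted p = 0.0519) and spike-in scaling, where the value was 0.06 (adjusted p = 0.785). Umps, which completes uridine monophosphate, gave −0.09 ± 0.14, and the CTP synthases Ctps1 and Ctps2 gave 0.04 ± 0.20 and 0.48 ± 0.21 (adjusted p = 0.689, 0.921 and 0.155, chosen after their values were seen).

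Uck1, a uridine and cytidine kinase of the salvage route, has a pair of probes that did not read alike. The brighter one, at 10 spots per array, was at 0.79, 1.01 and 0.80 on PCN arrays 1 to 3 and 0.97, 0.82 and 0.96 on control arrays 1 to 3. The groups overlapped there, with a log2 fold change of −0.05 ± 0.11 and a 95% interval of −0.31 to 0.21 (adjusted p = 0.781). The dimmer probe, a single spot, was at −2.98, −3.30 and −3.08 on the PCN arrays and −2.73, −2.23 and −2.49 on the control arrays. There all PCN arrays lay below all control arrays, and in a fit of all 18329 tested probes it gave −0.64 ± 0.16 (adjusted p = 0.0351). With the probes averaged, Uck1 passed at −0.34 (adjusted p = 0.0482).

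The difference between the probes within an array is not changed by scaling that array by a single factor. It can change with other normalization or background correction, under which it was not measured. The brighter Uck1 probe lay 3.77, 4.31 and 3.88 log2 units above the dimmer one on the PCN arrays and 3.70, 3.06 and 3.44 on the control arrays, so the groups did not overlap. The same held for Dpyd, at 0.73, 0.75 and 0.96 on the PCN arrays and 0.32, 0.27 and 0.43 on the control arrays. The gap widened by 0.59 for Uck1 and 0.47 for Dpyd in the PCN group mean over that of controls. This comparison was chosen after the values were seen and is given as a description. An exact permutation test gave p = 0.1 for both genes, the smallest value possible with so few arrays, so it cannot decide. How often the gap between probes separates the groups in other genes was not measured. Both probes of each gene name the same transcript, and which stretch of it each reads is not given in the files.

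**Figure D3:**
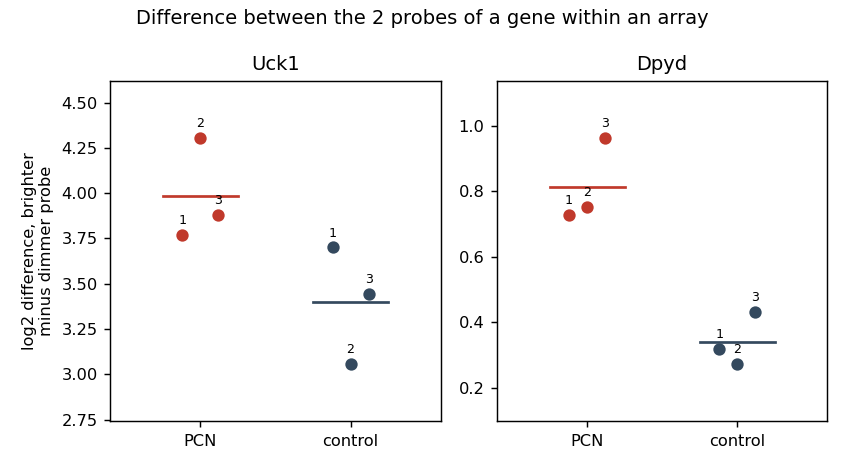
Log2 difference between the brighter and the dimmer probe of Uck1 and of Dpyd within each array, PCN left and control right, with the replicate number above each point and the group mean as a line. In both genes all 3 PCN arrays lie above all 3 control arrays.

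Among the salvage kinases, 2 of 6 tested genes rose and 0 fell, with a median of 0.24. The share called was 33.3%, against 19.9% of all tested genes. Tk1, the thymidine kinase of dividing cells, was at −1.34, −1.16 and −1.29 on the PCN arrays and −1.89, −1.71 and −1.69 on the control arrays. Dtymk, which adds the next phosphate to thymidine monophosphate, was at 0.45, 0.35 and 0.30 on the PCN arrays and −0.12, −0.02 and 0.04 on the control arrays. The groups were apart for both, with rises of 0.50 ± 0.11 and 0.40 ± 0.10 (adjusted p = 0.0206 and 0.0353). With 1 array left out, Dtymk lost the call in all 6 fits (adjusted p between 0.0630 and 0.108) and Tk1 in the 3 without a control array (between 0.0527 and 0.0679), and neither passed with spike-in scaling (0.12 and 0.23, adjusted p = 0.541 and 0.324).

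Upp1 and Upp2 encode the uridine phosphorylases, which split uridine into uracil and ribose 1-phosphate. Upp1 was at −1.86, −1.54 and −2.18 on PCN arrays 1 to 3 and −1.64, −1.25 and −1.75 on control arrays 1 to 3. The groups overlapped, with a log2 fold change of −0.31 ± 0.20 and a 95% interval of −0.80 to 0.17 (adjusted p = 0.330). Upp2 was at −1.78, −2.53 and −2.56 on the PCN arrays and −3.67, −2.45 and −5.61 on the control arrays. It was thus less spread among the PCN livers than among the control livers. Control array 3 was not well above background, and control array 2 was higher than PCN arrays 2 and 3.

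The SD of the Upp2 level was 0.44 with PCN and 1.59 in controls, from a probe of 1 spot per array. Its log2 fold change of 1.62 ± 0.74 had a 95% interval of −0.15 to 3.38 and did not pass (adjusted p = 0.176). The value was 0.77 without control replicate 3 and 2.35 without control replicate 2 (adjusted p = 0.288 and 0.0530), and 0.78 with normexp and all 6 arrays. Its size thus moved both with which control liver was left out and with the background correction.

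Dpyd encodes dihydropyrimidine dehydrogenase, which reduces uracil and thymine in the rate-limiting step of breakdown and degrades the drug fluorouracil. Its brighter probe was at −1.20, −1.81 and −0.97 on PCN arrays 1 to 3 and −1.46, −1.06 and −1.11 on control arrays 1 to 3. The groups overlapped, with PCN array 2 the lowest of all 6, and the log2 fold change was −0.12 ± 0.23 with a 95% interval of −0.68 to 0.44 (adjusted p = 0.756). Its dimmer probe was at −1.93, −2.56 and −1.93 on the PCN arrays and −1.77, −1.33 and −1.54 on the control arrays. Those groups did not overlap, yet the change of −0.60 ± 0.21 did not pass in the fit of all probes (adjusted p = 0.0966).

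Dpys, whose product opens the reduced ring, was at 1.95, 1.80 and 2.34 on PCN arrays 1 to 3 and 2.24, 2.19 and 2.37 on control arrays 1 to 3. PCN arrays 1 and 2 lay below every control array while array 3 lay among them, giving −0.23 ± 0.16 with a 95% interval of −0.61 to 0.14 (adjusted p = 0.344). With spike-in scaling, which shifts all genes down, Dpys was called at −0.51 (adjusted p = 0.0247). Upb1, whose product releases β-alanine in the final step, was at 4.56, 3.80 and 4.59 on PCN arrays 1 to 3 and 4.04, 4.16 and 4.31 on control arrays 1 to 3. PCN arrays 1 and 3 were above and array 2 below every control array, and the log2 fold change was 0.14 ± 0.23 with a 95% interval of −0.40 to 0.68 (adjusted p = 0.697).

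PCN array 2 was the lowest of the PCN arrays at 6 of the 10 tested member probes, those of Cda, Dpyd (both), Dpys, Upb1 and the dimmer one of Uck1. It was also the lowest of the PCN arrays for 45.3% of all tested genes. Whether this shared order bears on the spread of the members was not tested.

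Over the whole breakdown list, 1 of 12 tested genes rose and 2 fell, with a median of 0.00. Tymp, thymidine phosphorylase, which splits thymidine into thymine and a sugar phosphate, was at −1.08, −1.41 and −0.57 on the PCN arrays and 0.66, 0.78 and 0.16 on the control arrays. All PCN livers lay below all control livers, and the gene fell by 1.55 ± 0.25 (adjusted p = 8.54e-03). Agxt2, a mitochondrial aminotransferase that clears the β-amino acid left by thymine breakdown, was at 1.77, 1.70 and 1.73 on the PCN arrays and 2.38, 2.65 and 2.52 on the control arrays. The PCN livers were close to each other and apart from the controls, and Agxt2 fell by 0.78 ± 0.11 (adjusted p = 4.81e-03). Both passed in every alternative run, Tymp at −1.83 to −1.33 and Agxt2 at −1.06 to −0.58.

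Hibch, a hydrolase known mainly from the breakdown of valine, rose by 0.89 ± 0.15 (adjusted p = 9.11e-03), at −0.70, −0.42 and −0.51 on the PCN arrays and −1.40, −1.22 and −1.67 on the control arrays. Its other probe gave 0.93, and spike-in scaling ended the call (0.61, adjusted p = 0.0553). The 3 calls among the 12 genes of the breakdown list come to 25%, against 19.9% of all tested genes.

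Of 8 tested genes of deoxynucleotide supply 1 rose and 1 fell, with a median of 0.01. That is 25% called against 19.9% of all tested genes, and both called genes encode the small subunit of ribonucleotide reductase. Rrm2, the form of dividing cells, was at −2.25, −2.30 and −1.89 on the PCN arrays and −1.20, −1.26 and −0.36 on the control arrays. Rrm2b, the p53-inducible form that serves resting cells, was at −4.68, −4.69 and −4.33 on the PCN arrays and −5.22, −5.15 and −5.25 on the control arrays. The groups were apart for both: Rrm2 fell by 1.20 ± 0.26 and Rrm2b rose by 0.64 ± 0.13 (adjusted p = 0.0214 and 0.0160).

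Rrm2 was not called without PCN replicate 1 or 2 (adjusted p = 0.0599 and 0.0647), nor Rrm2b without control replicate 1 or 3 (0.0554 and 0.0581), with spike-in scaling (0.0805) or with normexp (0.0792). Beside them, 3 of 6 tested cell cycle markers, Ccna2, Ccnb2 and Cdk1, were lower and 0 higher with PCN, which is 50% called against 19.9% of all tested genes, and the list summed to 1.20 to 1.30 in PCN livers and 1.48 to 1.73 in control livers. Their part in the changes of Tk1, Dtymk, Rrm2 and Rrm2b was not tested. Tyms, which makes thymidine monophosphate, gave −0.32 ± 0.22 (adjusted p = 0.365, chosen after its value was seen).

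Of 5 tested nucleoside transporters 0 rose and 1 fell, with a median of −0.33. That is 20% called, against 19.9% of all tested genes. Slc28a2, a sodium-driven carrier of purine nucleosides and uridine, was at −0.88, −1.73 and −1.69 on the PCN arrays and −0.23, −0.60 and −0.01 on the control arrays. It fell by 1.15 ± 0.26 (adjusted p = 0.0263), and its other probe gave −1.02. The call was lost without PCN replicate 2 or 3 or control replicate 1 or 3, with adjusted p between 0.0731 and 0.0823. The equilibrative carrier Slc29a1 gave −0.04 ± 0.30 (adjusted p = 0.938, chosen after its value was seen).

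Taking the 6 pyrimidine lists with Cda left out, 5 of 47 tested genes rose, 4 fell and 38 did not pass, which is 19.1% called against 19.9% of all tested genes. The median log2 fold change was 0.01, against −0.06 over all tested genes. The 47 include Adat3, a subunit of the adenosine deaminase of tRNA, so not all of them act on pyrimidines. The split of 5 higher and 4 lower became 0 and 10 with spike-in scaling, 12 and 4 with median scaling and 4 and 5 with cyclic loess. With no filter on dim probes the calls of Dhodh, Tk1, Dtymk, Slc28a2, Rrm2 and Rrm2b were lost, at adjusted p between 0.0518 and 0.145. The count was 4 without control replicate 1 or 3 and 5 without PCN replicate 2. A share this close to that of all genes is not a result about the pathway.

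**Figure D4:**
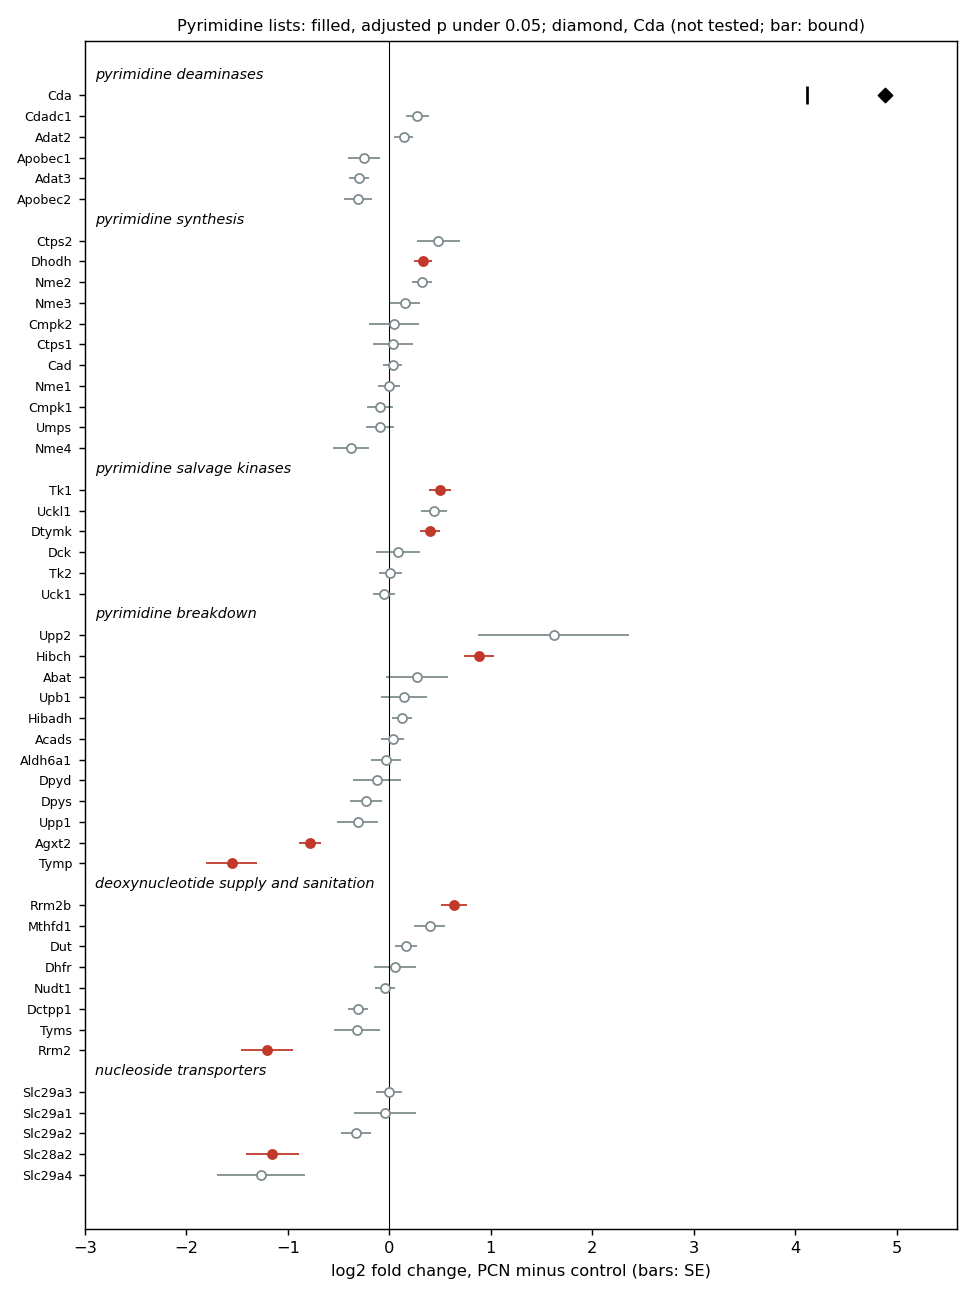
Log2 fold change, PCN minus control, of the tested genes of the 6 pyrimidine lists with SE bars, filled where the adjusted p was under 0.05, and Cda as a diamond with a short bar at its bound. Cda lies at 4.89, and the other genes lie between −1.55 (Tymp) and 1.62 (Upp2).

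**Figure D5:**
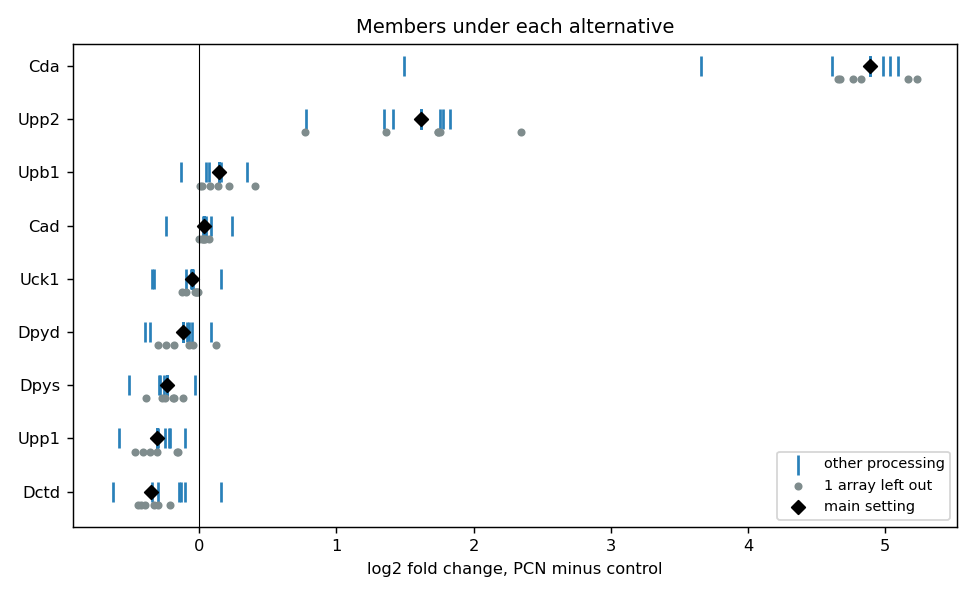
Log2 fold change, PCN minus control, of each of the 9 genes in the main setting (diamonds), under other processing (bars) and with 1 array left out (dots). Cda lies at 1.50 or higher, Upp2 ranges from 0.77 to 2.35, and the other 7 lie between −0.63 (Dctd) and 0.40 (Upb1).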

How the data were processed

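The intensity per spot in the deposited scanner files was, per the file headers, written by Agilent Feature Extraction 10.7.3.1 (1-colour, build rn4), which subtracts background within an array and gives a small positive stand-in where a spot is not above it. A deposited table of the authors' values was found, by comparison, to be a linear ratio of the processed signal to the 75th percentile of its array.

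From the processed signals, log2 minus the array's 75th percentile over 58717 non-control spots was taken, outlier spots were left out and spots of 1 probe averaged. A probe counted as well above background where at least 0.5 of its kept spots were so marked, and was tested if this held on all 3 arrays of a group (18329 probes). Names came from RefSeq accessions (GRCr8 table; 18004 of 30367 probes matched 1 symbol), and the brightest tested probe stood for a gene (16389). Groups were compared with limma 3.58.1 in R 4.3.3 (lmFit, eBayes, two-sided, Benjamini-Hochberg adjusted p under 0.05), tested on simulated data. Fold changes are PCN minus control. Alternatives changed the scaling, background correction, dim-probe filter, outlier spots or probe choice, used the deposited table, added a replicate block or left out 1 array. The number of arrays limits precision.

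Named genes were the 9 members, up to 4 per list past the threshold with the largest changes (or the one with the lowest p), 2 checks and the genes nearest Cda in pattern or fold, of which 1 is not reported here. The members, lists and tests were chosen with earlier results of these data known.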

Additional observations from a re-analysis of the deposited data

How the results depend on the processing

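With scaling to the spike-ins 5101 genes were called in all, with no filter on dim probes 1967 and with the replicate block 2067, against 3263. Leaving out 1 array gave 2023 to 2592, and 2023, 2112 and 2048 without control replicate 1, 2 and 3. Of the 7 tested members besides Cda 1 was called with spike-in scaling (Dpys), with each probe as a feature (Uck1) and with the probes of a gene averaged (Uck1), against 0, and 0 to 0 with 1 array left out. The pyrimidine lists held 16 calls with median scaling, 4 with no filter and 5 with the replicate block, against 9, and 4 to 7 with 1 array left out. The log2 fold change of Cda was 1.50 with normexp and 3.66 with the deposited values, and 4.66 to 5.23 with 1 array left out. Dctd, not tested, was at 0.16 with normexp, against −0.35. Sign changes among the tested members, none of them called, were Uck1 (0.16) and Dpyd (0.085) with median scaling, Cad (−0.24) and Upb1 (−0.13) with spike-in scaling and Dpyd (0.12) without PCN replicate 2, the top of its range of −0.30 to 0.12 with 1 array left out. The causes were not tested. Deviations from the group means of same-numbered arrays correlated at −0.10, −0.03 and −0.05 over genes, which cannot exclude a shared order in some genes. The labels give same-numbered PCN and control arrays only a common replicate number, so the replicate block is not read as a paired analysis. The 30 other named genes kept their direction in all 535 refits, 143 of which lost and 1 of which gained a call. Normexp on the median spot signal was chosen after seeing the files, which hold no mean signal. With only probes well above background on all 6 arrays, Cda and Upp2 were not fitted. Signal over background limits Cda in controls and Dctd in both groups.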

Other observations

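Purine genes, measured for comparison, gave 2 of 25 higher and 1 lower with PCN, which is 12% called against 19.9% of all tested genes, with a median of 0.09. The salvage enzyme Hprt1 rose by 0.56 ± 0.11 and the mitochondrial adenylate kinase Ak3 by 0.48 ± 0.11, and Prps2, which makes the ribose donor of nucleotide synthesis, fell by 0.35 ± 0.10 (adjusted p = 0.0154, 0.0266 and 0.0441). Of these, Prps2 lost the call in all 6 fits with 1 array left out, Ak3 in 5 and Hprt1 in 2. Spike-in scaling ended the calls of Hprt1 (0.28, adjusted p = 0.243) and Ak3 (0.21, adjusted p = 0.229). Prps2 was not called with median scaling (−0.15, adjusted p = 0.287), quantile normalization (adjusted p = 0.0630) or normexp (adjusted p = 0.0718). Of 12 nucleotidases and related hydrolases 2 rose (Nt5dc1 by 0.93 ± 0.18 and Enpp3 by 0.64 ± 0.17) and 2 fell (Nt5dc3 by 0.96 ± 0.20 and Enpp1 by 0.46 ± 0.13), which is 33.3% called against 19.9% of all tested genes. Enpp1 and Enpp3 lost the call in 6 and 5 of those fits, Nt5dc3 in 3 and Nt5dc1 in 1. Normexp ended the call of Nt5dc3 (−0.25, adjusted p = 0.225) and median scaling that of Enpp1 (−0.26, adjusted p = 0.159). Spike-in scaling ended those of Nt5dc1 (0.65, adjusted p = 0.0711) and Enpp3 (0.36, adjusted p = 0.105), and Enpp3 was also lost with quantile normalization and cyclic loess (adjusted p = 0.0582 and 0.0597). Among 10 enzymes that use CTP or UTP, Cmas, which activates sialic acid with CTP, rose by 0.50 ± 0.11 (adjusted p = 0.0208) and 0 fell, which is 10% called against 19.9% of all tested genes. The call was lost in 5 of those fits and with spike-in scaling (0.22, adjusted p = 0.301). With no filter on dim probes all of these calls but that of Nt5dc1 were lost, at adjusted p between 0.0535 and 0.137.

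The protein-coding neighbours of Cda in the GRCr8 annotation were read after the change of Cda was seen. Pink1 on one side gave 0.08 ± 0.10 and Ddost beyond it 0.21 ± 0.14 (adjusted p = 0.613 and 0.318). On the other side Mul1 and Camk2n1 gave 0.61 ± 0.17 and 0.62 ± 0.19 (adjusted p = 0.0524 and 0.0672). Fam43b, between Cda and Mul1, and Kif17, beyond Ddost, were not among the tested genes.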
